A study of Mus musculus with 6 samples.

Results

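The intermediate filament genes of astrocytes and a set of genes used to recognise astrocyte reactivity were followed in polysomal mRNAs of hippocampal astrocytes. The 10 genes were chosen by name: the filament proteins Gfap, Vim, Nes and Synm, the filament linker Plec, and the reactivity markers Serpina3n, S1pr3, Steap4, Cd44 and Osmr. All 10 were found among the 22092 genes of the count files, each read from its most counted transcript over all 6 libraries, and for Gfap all 3 deposited transcripts were examined. All 10 passed the filter on low counts, which kept 13545 genes.

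Libraries were made by translating ribosome affinity purification (TRAP), in which ribosomes carrying an eGFP-tagged L10a protein are immunoprecipitated with the mRNAs bound to them. Both groups consisted of whole hippocampi of 6 weeks-old mice that carried floxed Cx43 alleles (Cx43 fl/fl) and the Aldh1l1:L10a-eGFP transgene, driven by the Aldh1l1 promoter of astrocytes. The 3 libraries labelled Cx43KO also carried a Cre recombinase driven by the human GFAP promoter (hGFAP-Cre), and the 3 littermate libraries, called Cx43FL, did not. The promoter of the Cre transgene is thus that of a gene of the set, and radial glia from which neurons descend are also known to use it. Gja1, the targeted gene that encodes Cx43, had 92.0, 91.7 and 82.3 counts per M counts (CPM) in replicates 1 to 3 of Cx43FL, against 87.2, 98.4 and 95.1 CPM in the 3 Cx43KO replicates. Its level did not separate the genotypes, so that a loss of the target was not visible in these counts. Counts per transcript do not show from which part of the gene they came. Group names below are therefore those of the labels.

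Total counts were between 33.4 and 36.9 M in 4 libraries, and were 55.3 M in Cx43KO replicate 2 and 77.0 M in replicate 3. CPM are scaled by TMM, on which 3 counts correspond to between 0.0926 and 0.199 CPM, a floor that covers counting error only. Each of 12 astrocyte markers was tested and present in every library, their summed level being between 19449 and 23106 CPM in Cx43FL and between 11807 and 32074 CPM in Cx43KO. Markers of other cells were present too: 14 neuronal markers summed to between 2149 and 2883 CPM in Cx43FL and to between 2960 and 7626 CPM in Cx43KO. The 8 choroid plexus markers, led by Ttr, summed to between 473 and 15403 CPM in Cx43FL and to between 22313 and 33059 CPM in Cx43KO. The defining neuronal markers were thus not at 0 in either group. In a bulk preparation of this kind, fewer cells of a type and less RNA per cell cannot be told apart.

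Intermediate filaments of astrocytes are built from GFAP and vimentin, with nestin and synemin incorporated into filaments that contain vimentin. Plectin, a very large plakin, links the filaments to each other, to other parts of the cytoskeleton and to junctions at the membrane. In the injured or inflamed brain, astrocytes are known to build more of this network, and GFAP is the marker most used to recognise them. The secreted protease inhibitor Serpina3n, the sphingosine 1-phosphate receptor S1pr3, the metalloreductase Steap4, the hyaluronan receptor Cd44 and the oncostatin M receptor Osmr are raised in reactive astrocytes in several injury and inflammation models.

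Gfap lies on the minus strand of chromosome 11 and has transcripts that end in different ways. Gfap-201 (GRCm38, chr11:102887336-102897131, 9 exons, 2648 bases) encodes the main form of the protein. Gfap-202 (chr11:102890166-102897200, 8 exons, 2600 bases) has a different last exon and encodes the form with another tail, known as GFAP delta. Gfap-203 (356 bases) is a short processed transcript with no coding region annotated.

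When genotypes were compared by the quasi-likelihood test of edgeR, 0 of the 10 genes were called, that is, none had both a Benjamini-Hochberg adjusted p below 0.05 over all genes and more than 50 normalized counts on average in the higher group. Of all genes tested, 0.00738% were called, that is, Prm1, which was no gene of the set. At an unadjusted p below 0.05, 1 gene of the set, Serpina3n, was higher in the libraries labelled Cx43KO and none was lower, against 5.66% and 2.67% of all genes. DESeq2 with its prior on fold changes also called 1 of them, again Serpina3n, against 0.827% of all genes called higher in Cx43KO. In 9 of the 10 the libraries of the genotypes overlapped, and in 1 every Cx43KO library was above every Cx43FL library, as in 8.08% of all genes tested. The log2 fold changes were positive for 6 genes and negative for 4, with a median of 0.51 against 0.071 over all genes tested.

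**Figure D1:**
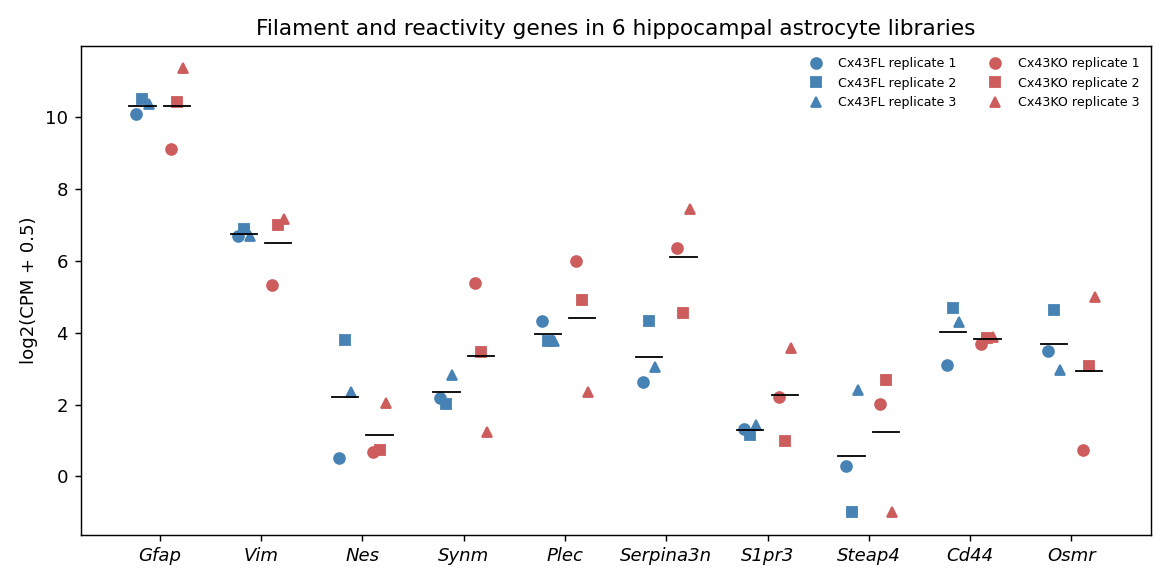
Levels of the 10 genes as log2(CPM + 0.5), with 1 point per library and a horizontal bar at the mean of each group of 3 (blue, Cx43FL; red, Cx43KO; circle, square and triangle, replicates 1 to 3). Serpina3n is the gene without overlap between the groups, and the red points of Gfap, Synm, Plec and Osmr are spread more widely than the blue ones.

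Within Cx43FL the levels were compared per kb of transcript, since longer transcripts collect more reads. Gfap came first, with 411, 543 and 497 CPM per kb in replicates 1 to 3, followed by Vim with 46.8, 53.7 and 46.6 CPM per kb. Both were separated from the next gene in every library. Serpina3n, Cd44, Osmr, Nes and Plec followed, with medians from 3.72 CPM per kb for Serpina3n down to 0.755 for Nes and 0.883 for Plec, and each overlapped with the next in the order by mean except Plec, which was separated from Synm. Synm, Steap4 and S1pr3 were the lowest, with medians of 0.522, 0.230 and 0.443 CPM per kb, and could not be ranked against each other. The filament network of the control libraries was therefore represented, at the level of ribosome-bound mRNA, mainly by Gfap and Vim, with Nes and Synm far lower.

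In Cx43KO the order differed between libraries. Gfap had 207, 519 and 992 CPM per kb and Vim 17.9, 58.2 and 64.7 CPM per kb in replicates 1 to 3. Serpina3n had 39.5, 11.0 and 84.0 CPM per kb, so that its level was above that of Vim in replicates 1 and 3 and below it in replicate 2. In Cx43FL it was below Vim in each library.

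Gfap, the principal filament protein of mature astrocytes, had 1090, 1437 and 1315 CPM in the Cx43FL libraries (here and below in the order of replicates 1 to 3) and 549, 1375 and 2626 CPM in the Cx43KO libraries. The lowest and the highest library of the series were both labelled Cx43KO, and replicate 2 fell inside the Cx43FL range. In the fit the genotypes differed by 0.24 on the log2 scale (standard error 0.46, adjusted p = 0.890 by the quasi-likelihood test of edgeR, as for the genes that follow), and the sign rested on 1 library: without Cx43KO replicate 3 it was -0.41, and without Cx43KO replicate 1 it was 0.64. The group means of the log2 levels differed by -0.02, opposite in sign to the fit. The ratio of highest to lowest library was 4.79 in Cx43KO.

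Vim, the vimentin gene (chr2:13573952-13582826), had 103, 118 and 102 CPM in Cx43FL and 39.3, 128 and 142 CPM in Cx43KO. Its Cx43KO libraries took the same order as those of Gfap, with replicate 1 below and replicates 2 and 3 above all Cx43FL libraries. The fitted log2 difference was -0.06 (standard error 0.43, adjusted p = 0.978), or 0.32 without Cx43KO replicate 1. The group means of the log2 levels differed by -0.26.

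Nes (chr3:87971093-87980451), whose product nestin marks neural progenitors and is re-expressed by reactive astrocytes, had 0.922, 13.5 and 4.62 CPM in Cx43FL and 1.12, 1.17 and 3.61 CPM in Cx43KO. The spread between the Cx43FL libraries was larger than the difference between the groups. For Nes the fitted log2 difference was -1.68 (standard error 1.13, adjusted p = 0.665), or -0.51 without Cx43FL replicate 2, the library in which it was highest.

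Synm (chr7:67730160-67759693), which encodes synemin, had 4.08, 3.52 and 6.51 CPM in Cx43FL and 41.5, 10.5 and 1.85 CPM in Cx43KO. Cx43KO replicates 1 and 2 were above all Cx43FL libraries and replicate 3 was below them. A log2 difference of 1.93 (standard error 0.95, adjusted p = 0.603) became 0.39 without Cx43KO replicate 1.

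Plec (chr15:76170974-76231378), the plectin gene, had 19.5, 13.1 and 13.2 CPM in Cx43FL and 62.8, 29.3 and 4.60 CPM in Cx43KO. This is the same order of Cx43KO libraries as for Synm and the reverse of that for Gfap and Vim. A log2 difference of 1.08 (standard error 0.74, adjusted p = 0.673) became 0.15 without Cx43KO replicate 1.

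Of the filament and linker genes, 4 formed 2 pairs by their profile over the 6 libraries, and Nes belonged to neither, being nearest to Cd44 (0.77) in the measure used here. Likeness was measured as the root mean square difference of the centred log2 levels, in which 0 means the same profile. It was 0.27 for Gfap with Vim and 0.51 for Synm with Plec, the lowest values of the 45 pairs of the set, whose median was 1.68. Over 6 libraries these values describe the libraries and share their composition. Among 9780 genes with a mean of at least 10 CPM, the profile most like that of Gfap was that of Sparcl1 (0.11), which encodes an abundant secreted protein of astrocytes, with 1148, 1516 and 1180 CPM in Cx43FL and 603, 1236 and 2617 CPM in Cx43KO. Rpn2 (0.12), a subunit of the oligosaccharyltransferase of the endoplasmic reticulum, and Fra10ac1 (0.13) came next. The profiles most like that of Vim were those of Fkbp2 (0.063), a prolyl isomerase of the endoplasmic reticulum, Mfsd1 (0.079), a lysosomal transporter, and Tcea2 (0.080), a transcription elongation factor. Over all 9780 genes the median was 0.78 for Gfap and 0.74 for Vim, well below the median of the 45 pairs.

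Since Gfap is read as a level per astrocyte, it was also set against 12 other astrocyte markers of the same library (Aldh1l1, Slc1a2, Slc1a3, Aqp4, Aldoc, Gjb6, Sox9, S100b, Fgfr3, Acsbg1, Atp1b2 and Slc4a4). These markers did not move alike: 5 of 12 had positive log2 fold changes, from 0.64 for Atp1b2 down to -0.83 for Gjb6. Gjb6 was lower in every Cx43KO library, as were 7.45% of all genes tested. The geometric mean of the 12 markers was 737, 784 and 856 CPM in Cx43FL and 402, 771 and 1029 CPM in Cx43KO, the lowest and the highest being the libraries in which Gfap was lowest and highest. Relative to this mean, Gfap stood at 0.56, 0.88 and 0.62 on the log2 scale in Cx43FL and at 0.45, 0.83 and 1.35 in Cx43KO. The difference between the groups was 0.19 (p = 0.7, exact 2-sided permutation test, n = 3 libraries per group, for which the smallest possible p is 0.1), and -0.04 without Cx43KO replicate 3. With the median of the markers in place of their geometric mean it was 0.10. Each of these is a difference of group means of log2 levels. Without the markers this difference was -0.02 for Gfap, where the edgeR fit gave 0.24. For Vim it was -0.05 relative to the markers (p = 0.8, exact permutation test) and -0.26 without them, where the fit gave -0.06. The spread of Vim in Cx43KO fell from an SD of 1.02 to 0.38 on the log2 scale when it was expressed relative to the markers, and that of Gfap from 1.13 to 0.45. Those of Synm and Plec rose from 2.08 to 2.76 and from 1.86 to 2.51.

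The libraries also differed with transcript length. Among genes with a mean of at least 10 CPM, the 1308 with a transcript of up to 1500 bases had a median of -0.76 on the log2 scale in Cx43KO replicate 1, relative to the mean of the Cx43FL libraries, and the 1474 with a transcript above 6000 bases had a median of 0.81. In Cx43KO replicates 2 and 3 the same medians were -0.17 and 0.15, and -0.19 and -0.01. Gfap (2648 bases) and Vim (2193 bases) were low in Cx43KO replicate 1 and have short transcripts, and Synm (7818 bases) and Plec (14972 bases) were high in it and have long ones. The class from 1500 to 3000 bases, to which Gfap and Vim belong, had a median of -0.31 in that library. Nes (6126 bases) and Osmr (5491 bases), however, were low in it although their transcripts are long. Serpina3n (2064 bases) was high in it, at 3.02 relative to the Cx43FL mean, although its transcript is short. Relative to the median of the genes of like length, Cx43KO replicate 1 remained at -0.90 for Gfap, -1.13 for Vim, 2.24 for Synm and 1.22 for Plec on the log2 scale. The summed level of 10 oligodendrocyte markers was 628, 1082 and 685 CPM in Cx43FL and 2813, 1147 and 662 CPM in Cx43KO. Its Cx43KO libraries had the order of Synm and Plec. Summed markers of choroid plexus and of neural progenitors and cycling cells had this order too. Those of neurons, microglia, endothelial and mural cells, fibroblasts, ependyma and oligodendrocyte precursors did not. Whether length or other cells have a part in these differences was not tested.

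**Figure D2:**
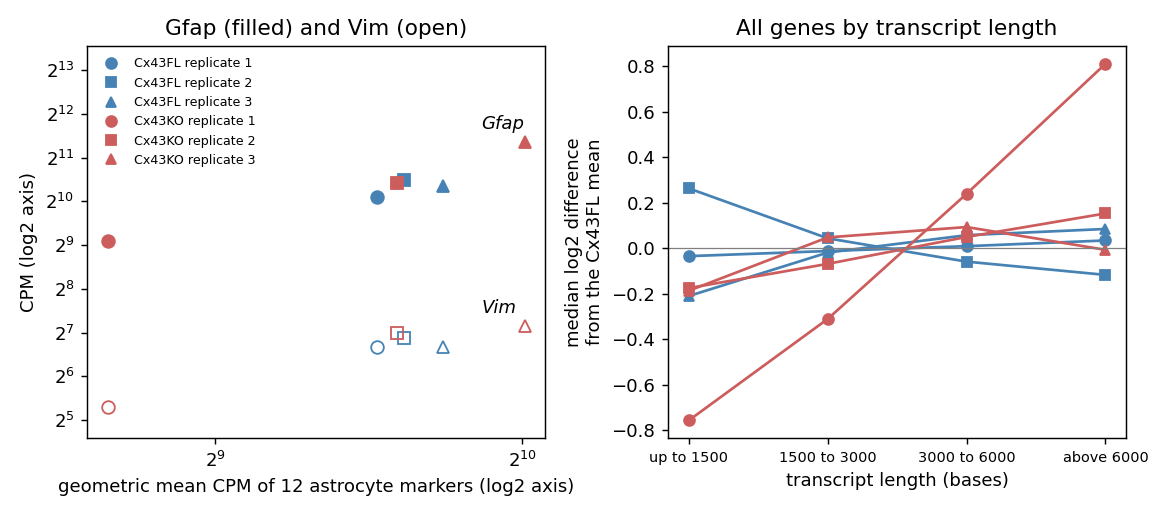
Left, CPM of Gfap (filled) and Vim (open) against the geometric mean CPM of 12 astrocyte markers, both on log2 axes, with 1 point per library: Cx43KO replicate 1 is lowest and Cx43KO replicate 3 highest on the x axis and for both genes. Right, median log2 difference from the Cx43FL mean for all genes with at least 10 CPM, by class of transcript length in bases: Cx43KO replicate 1 runs from -0.76 for the shortest to 0.81 for the longest class, and the other libraries stay between -0.21 and 0.26.

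The 3 Gfap transcripts were then compared with each other. In the deposited files a read on an exon shared by several transcripts was counted on each of them: 11 of the 22 Plec transcripts had identical counts in all 6 libraries. Gfap-201 and Gfap-202 share 1176 bases, and 1472 bases belong to Gfap-201 only and 1424 to Gfap-202 only, so their counts are overlapping sums and not shares of molecules. Gfap-201 had 16542, 21659 and 20194 counts in Cx43FL, against 8837, 34212 and 85044 in Cx43KO. Gfap-202 had 11656, 13275 and 13025 counts in Cx43FL, against 4877, 18857 and 24942 in Cx43KO. The sums of both coding transcripts were thus large in every library. Counts on the bases that only Gfap-202 has were not separated, so these sums do not show whether GFAP delta mRNA was present.

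The ratio of Gfap-201 to Gfap-202 was 1.42, 1.63 and 1.55 in the Cx43FL libraries, against 1.81, 1.81 and 3.41 in the Cx43KO libraries. Every library labelled Cx43KO was above every Cx43FL library, in replicates 1 and 2 by little and in replicate 3 by more than the whole Cx43FL range. The difference of the log2 ratios was 0.55 (Cx43FL, 0.61 ± 0.10; Cx43KO, 1.16 ± 0.53; SD, n = 3 each; p = 0.1, exact 2-sided permutation test, the smallest p that this design allows). Gfap-201 held 54.5%, 58.3% and 56.3% of the counts summed over the 3 transcripts in Cx43FL and 59.4%, 60.1% and 74.5% in Cx43KO, a difference of 8.31 percentage points that was 3.38 without Cx43KO replicate 3. Neither form was called by itself: in a fit over 49127 transcripts, of which 0.00204% were called, the log2 fold change was 0.25 for Gfap-201 (standard error 0.46), -0.45 for Gfap-202 (standard error 0.36) and -0.39 for Gfap-203 (standard error 0.34).

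The bases that only Gfap-201 has lie at the 3′ end of the gene, but Gfap-202 has a last exon of its own as well. How a shift of reads toward 3′ ends would move their ratio is therefore not known. A measure of the position of reads along transcripts was taken from 132 other genes that have a short transcript near each end. For each library this was the median log2 ratio of the 3′ to the 5′ transcript after centring each gene over the libraries. It was -0.10, 0.33 and -0.14 in Cx43FL and 0.03, -0.22 and 0.23 in Cx43KO. Cx43KO replicate 3, with the highest Gfap ratio, was the second highest by this measure, after Cx43FL replicate 2, and the groups overlapped. Its part in the Gfap ratio was not tested.

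**Figure D3:**
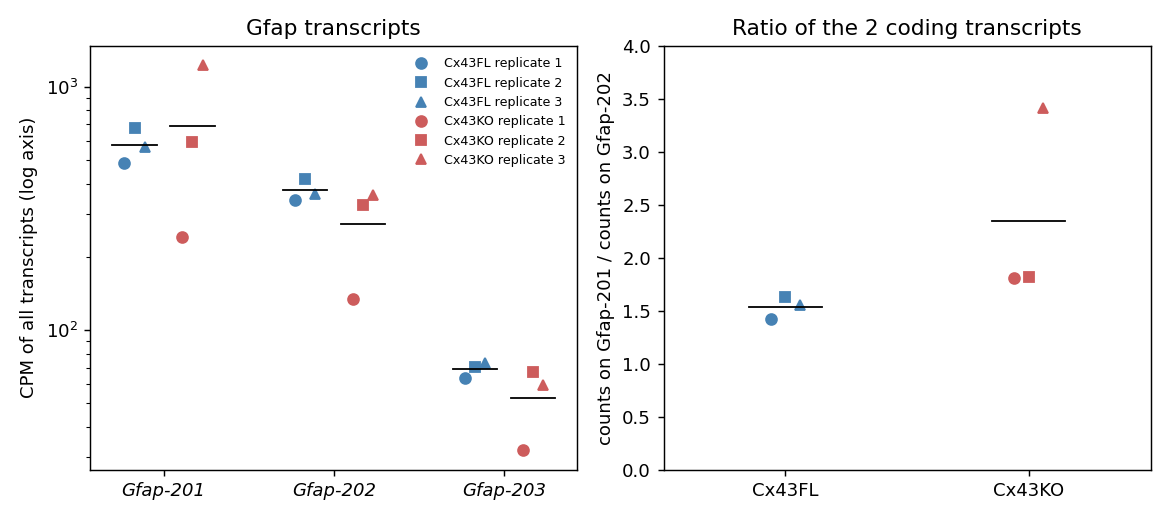
Left, CPM of each Gfap transcript on a log axis, on the scale of all transcripts, with 1 point per library and a bar at the group mean. Right, counts on Gfap-201 divided by counts on Gfap-202: the 3 Cx43FL libraries lie between 1.42 and 1.63 and the 3 Cx43KO libraries at 1.81, 1.81 and 3.41.

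Transcripts of other genes of the set also differed in their coverage between libraries. Plec-214, which covers 5′ exons of Plec, had 19.6%, 29.4% and 12.8% of the counts of the full-length Plec-209 in Cx43FL, 13.8% and 13.8% in Cx43KO replicates 1 and 2, and 87.9% in Cx43KO replicate 3. In that library 131 counts were given to Plec-214 and 149 to Plec-209, 2 overlapping sums. Synm-201 and Synm-202 differed by at most 1 count in every library.

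Serpina3n (chr12:104406729-104414329), a secreted inhibitor of serine proteases and one of the genes most raised in reactive astrocytes, had 5.73, 19.7 and 7.69 CPM in Cx43FL and 81.4, 22.8 and 173 CPM in Cx43KO. All Cx43KO libraries were above all Cx43FL libraries, but the gap between Cx43KO replicate 2 and Cx43FL replicate 2 was small compared with the spread within either group. The fitted log2 difference was 3.07 (standard error 0.72, adjusted p = 0.490 by edgeR over all genes), and ranged from 2.24 without Cx43KO replicate 3 to 3.77 without Cx43FL replicate 2. DESeq2 with its prior gave 2.17 (adjusted p = 0.00417). The call therefore differed between the tests, while the direction was the same when any 1 library was left out. The study listed this gene from the same libraries, so that its direction is no independent evidence.

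Serpina3n belongs to a cluster of closely related genes on chromosome 12, and reads that map more than once were removed by the authors. Of 9 neighbouring Serpina3 genes in the files, 3 had no count in any library and none passed the filter on low counts. Their summed level was at most 0.130 CPM in Cx43FL, and 6.83, 0.362 and 13.4 CPM in Cx43KO replicates 1 to 3. Serpina3m had 3.29, 0.040 and 6.98 CPM of this in Cx43KO and no count in Cx43FL, and Serpina3f had 0.683, 0.322 and 2.56 CPM and likewise none. The 0.040 CPM of Serpina3m was 1 count, below the floor of 3 counts. Serpina3m and Serpina3k begin at the same annotated position, so the summed level may hold reads counted on both. The order of the Cx43KO libraries was that of Serpina3n, and whether these counts were separated fully from those of Serpina3n was not tested.

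Among the 9780 genes with at least 10 CPM, none had a profile as close to that of Serpina3n as those found for Gfap and Vim. The nearest were Chgb (0.69), which encodes a granin of secretory granules, Clstn2 (0.73), a synaptic cadherin-like protein, and Slc39a6 (0.79), a zinc transporter. Chgb had 19.0, 24.5 and 17.1 CPM in Cx43FL and 107, 25.6 and 121 CPM in Cx43KO. These genes are known for their expression in neurons more than in astrocytes, and Chgb and Clstn2 are also on the study's list of upregulated genes.

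The summed level of 18 microglial markers was 61.9, 71.8 and 41.1 CPM in Cx43FL and 196, 121 and 282 CPM in Cx43KO. Its Cx43KO libraries had the order of Serpina3n. Of the 15 tested, 7 were higher in every Cx43KO library, as were 8.08% of all genes tested. The same number had an unadjusted p below 0.05, against 5.66% of all genes in this direction, Itgam with the largest difference. Cx3cr1, P2ry12 and Tmem119, however, overlapped between the groups. No microglial marker was at 0 in all libraries. Neuronal markers, with 5 of 14 higher in every Cx43KO library, were also lowest in Cx43KO replicate 2, but highest in replicate 1 and not in replicate 3. Endothelial markers (38.9, 16.9 and 25.3 CPM in Cx43KO) and mural markers (92.7, 40.1 and 87.8 CPM) had the order of the neuronal ones. Fibroblast and meningeal markers (103, 113 and 289 CPM) were highest in replicate 3 and lowest in replicate 1. Of 8 choroid plexus markers, 7 were higher in every Cx43KO library. The part of other cells in the level of Serpina3n was not tested.

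**Figure D4:**
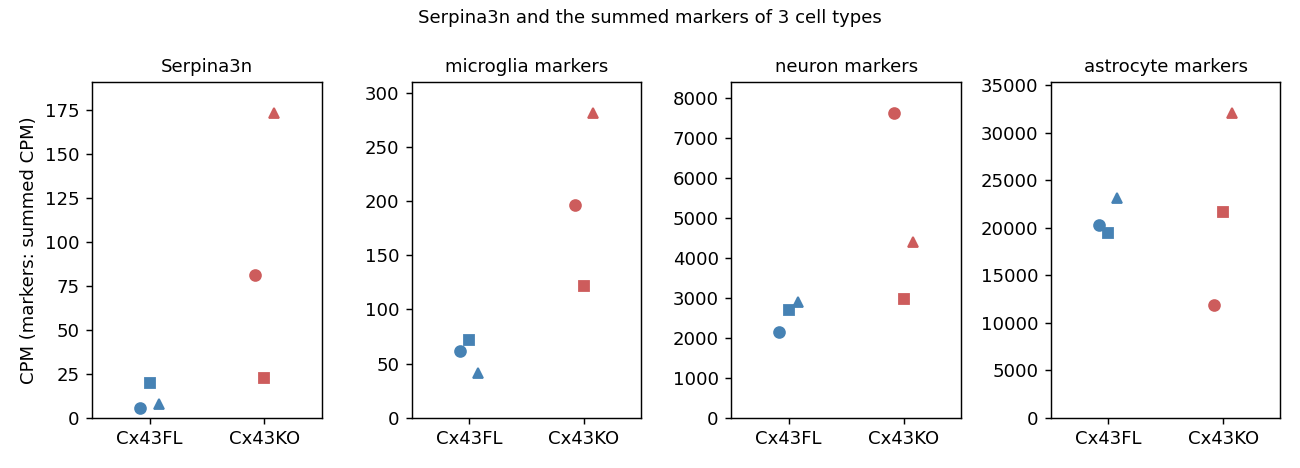
CPM of Serpina3n and summed CPM of the markers of microglia (18 genes), neurons (14) and astrocytes (12), with 1 point per library and a y axis from 0 in each panel (colours and symbols as in the plot of the 10 genes). Serpina3n and the microglial markers have the same order of Cx43KO libraries, with replicate 3 highest and replicate 2 lowest. Neuronal markers are also lowest in replicate 2, but highest in replicate 1.

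S1pr3 (chr13:51408639-51422797), 1 of the receptors through which sphingosine 1-phosphate acts, was counted 30, 26 and 34 times in Cx43FL, against 66, 37 and 370 times in Cx43KO. This corresponds to 1.98, 1.72 and 2.21 CPM in Cx43FL, against 4.10, 1.49 and 11.4 CPM in Cx43KO, so that replicate 2 was below all Cx43FL libraries. A log2 difference of 1.52 (standard error 1.03, adjusted p = 0.666) became 0.50 without Cx43KO replicate 3. Of 10 other genes of the sphingosine 1-phosphate pathway 9 were tested, none was called and none had an unadjusted p below 0.05, with a median log2 fold change of -0.32. S1pr1, the receptor most abundant in these libraries, had 1331, 1115 and 1170 CPM in Cx43FL and 528, 739 and 1042 CPM in Cx43KO. All of its Cx43KO libraries were below all Cx43FL libraries, as in 7.45% of all genes tested, at a log2 difference of -0.65 (standard error 0.31, adjusted p = 0.600). Sgpl1, the lyase that degrades sphingosine 1-phosphate, had the largest negative difference (-0.69, standard error 0.54) and was also lower in every Cx43KO library, and the receptor gene S1pr5 had the largest positive one (0.53, standard error 0.96). The receptors S1pr2 and S1pr5 and the kinases Sphk1 and Sphk2 overlapped between the groups.

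Steap4 (chr5:7960457-7982213), which reduces iron and copper in endosomes and is induced by inflammation, was counted 11, 0 and 73 times in Cx43FL, against 57, 147 and 0 times in Cx43KO. It was thus not detected in 1 library of each genotype, where 0 counts allow a level of up to 0.199 CPM in Cx43FL replicate 2 and 0.0926 CPM in Cx43KO replicate 3. The fitted log2 difference of 0.78 had a standard error of 1.83 (adjusted p = 0.915), and ranged from -0.06 without Cx43KO replicate 2 to 3.09 without Cx43FL replicate 3. The counts of 11, 0 and 73 came from Cx43FL libraries of nearly equal depth, and the 0 of Cx43KO from its deepest library. Of 11 genes of the Steap family and iron handling, all were tested and none was called. Steap2 had 46.6, 6.96 and 61.3 CPM in Cx43FL and 217, 92.7 and 71.7 CPM in Cx43KO, a log2 difference of 1.73 (unadjusted p = 0.026, adjusted p = 0.556). With Trf, the transferrin gene (log2 fold change 1.33, unadjusted p = 0.0174), it made up the 2 of 11 at an unadjusted p below 0.05. Of all genes tested, 5.66% were higher in Cx43KO at that threshold. The ferritin heavy chain Fth1, the most abundant of the 11, had a log2 fold change of 0.21, and Steap3 had the largest negative one (-0.57, standard error 0.73).

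Cd44 (chr2:102811141-102901625), the receptor for hyaluronan and osteopontin, had 8.10, 25.2 and 19.3 CPM in Cx43FL and 12.4, 14.1 and 14.2 CPM in Cx43KO. It was 1 of 2 genes of the set, with Nes, whose libraries differed less in Cx43KO than in Cx43FL, and all Cx43KO libraries fell inside the Cx43FL range. For Cd44 the fitted log2 difference was -0.37 (standard error 0.57, adjusted p = 0.859), and ranged from -0.73 without Cx43FL replicate 1 to -0.03 without Cx43FL replicate 2. It was -0.06 with scaling on the astrocyte markers. Of 13 genes that make, degrade or bind hyaluronan or link Cd44 to actin, 12 were tested, none was called and none had an unadjusted p below 0.05. Spp1, which encodes osteopontin, had the largest positive difference (1.37, standard error 1.41), Hyal3, a hyaluronidase, the largest negative (-1.53, standard error 1.33), and the actin linker Ezr was the most abundant. Msn, another such linker that is also expressed by microglia and vessels, had 28.2, 60.0 and 49.0 CPM in Cx43FL and 93.2, 74.4 and 70.5 CPM in Cx43KO.

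Osmr (chr15:6813577-6874969), which pairs with gp130 to form the receptor for oncostatin M, had 10.7, 24.1 and 7.36 CPM in Cx43FL and 1.18, 7.96 and 31.3 CPM in Cx43KO. It had the largest span of Cx43KO libraries of the genes with counts in each, the highest being 26.6 times the lowest. For Osmr the fitted log2 difference was -0.05 (standard error 0.94, adjusted p = 0.993), and ranged from -1.61 without Cx43KO replicate 3 to 0.57 without Cx43FL replicate 2. The group means of its log2 levels differed by -0.75. Of 17 genes of the gp130 cytokine pathway 13 were tested and none was called. The ligand genes Osm, Il6 and Il11 had no count in any library. Il6st, which encodes gp130 itself, had 59.6, 58.5 and 62.7 CPM in Cx43FL and 115, 81.7 and 103 CPM in Cx43KO, a log2 difference of 0.73 (unadjusted p = 0.0328, adjusted p = 0.563), the only one of the 13 at an unadjusted p below 0.05. Lifr, its partner for leukemia inhibitory factor, had 33.1, 10.5 and 29.7 CPM and 52.1, 55.3 and 40.5 CPM, also without overlap. Of all genes tested, 8.08% were higher in every Cx43KO library, and 5.66% were higher at an unadjusted p below 0.05. The kinase Jak1, the most abundant gene of this list, was higher in every Cx43KO library by a log2 fold change of 0.22 (adjusted p = 0.815). Jak2 was lower in every one (-0.52, adjusted p = 0.621), as were 7.45% of all genes tested. Stat3, a transcription factor downstream of these receptors, had a log2 fold change of -0.07, and its feedback inhibitor Socs3 of -1.61 (standard error 1.26), the largest negative one of the list. The kinase gene Tyk2 had the largest positive one (1.02, standard error 1.05), with 5.60, 1.46 and 5.99 CPM in Cx43FL and 0.683, 14.1 and 11.7 CPM in Cx43KO.

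Of 6 further genes used as markers of any kind of astrocyte reactivity 4 were tested. Lcn2, the lipocalin that is among the strongest of them after lipopolysaccharide, had no count in any library. Cxcl10, an interferon-induced chemokine, had 6.52, 9.95 and 1.89 CPM in Cx43FL and 7.82, 56.9 and 52.1 CPM in Cx43KO, a log2 difference of 2.67 (standard error 0.80, adjusted p = 0.492 by edgeR, 0.0494 by DESeq2 with its prior). It overlapped between the groups through Cx43KO replicate 1, in which Serpina3n was high, and it too was listed by the study from these libraries. Aspg had a log2 fold change of 1.41, Cp, the ceruloplasmin gene, of 0.96 and the small heat shock protein gene Hspb1 of -0.58. None of these 3 had an unadjusted p below 0.05.

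Of 18 other intermediate filament genes 12 were tested, none was called, and 9 had positive log2 fold changes. Krt10, a keratin known from differentiating epidermis, had 95.0, 115 and 54.1 CPM in Cx43FL and 19.0, 25.0 and 15.5 CPM in Cx43KO. All its Cx43KO libraries were below all Cx43FL libraries, at a log2 difference of -2.15 (standard error 0.40, adjusted p = 0.490 by edgeR, 4.78e-04 by DESeq2 with its prior). The study listed it from these libraries. Nefl, the neurofilament light chain gene of neurons and the most abundant of this list, had 118, 242 and 129 CPM in Cx43FL and 515, 246 and 186 CPM in Cx43KO (log2 fold change 0.95, unadjusted p = 0.0462, adjusted p = 0.592). It was highest in Cx43KO replicate 1, the library with the highest neuronal markers. Des, the desmin gene of muscle and mural cells, had the largest positive difference, 3.01 with a standard error of 1.80, at 7.53 CPM in Cx43KO replicate 3 and below 1 CPM in the other libraries.

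Of 12 plakins and filament partners in the files 9 were tested and none was called or had an unadjusted p below 0.05, with a median log2 fold change of 0.02. Dtna, the dystrobrevin gene of the astrocyte endfoot complex, was the most abundant (log2 fold change 0.02), Dsp, the desmoplakin gene, had the largest positive difference (1.36, standard error 0.68) and the integrin gene Itgb4 the largest negative (-0.59, standard error 1.32). The giant plakins Dst and Macf1 took the order of Plec in Cx43KO: Dst had 175, 105 and 24.3 CPM in replicates 1 to 3 and Macf1 259, 121 and 35.9 CPM. In Cx43FL they had between 42.1 and 110 CPM and between 84.0 and 139 CPM. Dmd, the dystrophin gene, and Cryab, a chaperone that binds GFAP filaments, were lower in every Cx43KO library, with log2 fold changes of -0.31 and -0.26. Of all genes tested, 7.45% were lower in every Cx43KO library.

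The spread between libraries was larger in Cx43KO than in Cx43FL for 8 of the 10 genes, as it was for 69.5% of all genes tested. The median SD of the log2 levels was 0.62 in Cx43FL and 1.38 in Cx43KO over the 10 genes, and 0.42 and 0.65 over all genes tested. This comparison was not matched for level. Among genes of like mean CPM, the median SD in Cx43KO ran from 0.45 for those like Vim to 1.15 for those like Steap4. Cx43KO replicate 3 was the highest Cx43KO library for 7 of the 10 and replicate 1 the lowest for 5. The same counts were not taken over all genes tested. The direction of 4 genes, Gfap, Vim, Steap4 and Osmr, turned when 1 library was left out.

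**Figure D5:**
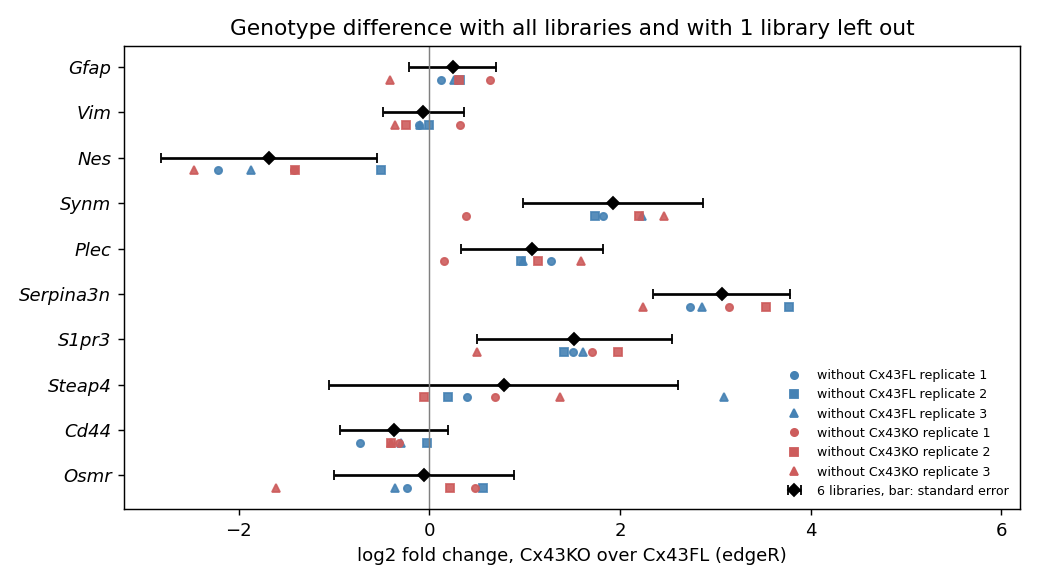
Log2 fold change of Cx43KO over Cx43FL for each of the 10 genes by edgeR, with all 6 libraries (black diamond, bar: standard error) and with each library left out in turn (coloured symbols below it). The symbols of Gfap, Vim, Steap4 and Osmr lie on both sides of 0, and all those of Serpina3n lie between 2.24 and 3.77.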

How the data were processed

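Polysomal mRNAs were sequenced after amplification of low-input RNA. The authors aligned reads with STAR to mm10 (Ensembl 75 annotation), removed reads matching more than once, and deposited raw counts per transcript, not normalized, made with HTSeq-count 0.5.3. The versions are those of the submitters' processing notes.

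Of 75466 transcripts, 73164 were matched to symbols of GENCODE vM21 on the same build (GRCm38), and the 2302 others held 1.60% to 1.78% of the counts. Tests had been planned on genes, whereas counts were given on transcripts, with shared reads counted on each. The genotype comparison was made in edgeR 4.0.16 under R 4.3.3 (TMM, filterByExpr, quasi-likelihood F test, genotype as the only term). A standard error is the absolute log2 fold change over the root of F. DESeq2 1.42.0, run on all genes with its own filtering, was an alternative. Single values were compared by the exact permutation test on log2(CPM + 0.5), except the ratio of Gfap-201 to Gfap-202. That ratio was compared on the log2 of the ratio of raw counts. The edgeR test was checked on simulated counts in which 200 genes changed by 3 on the log2 scale. Smaller changes and DESeq2 were not part of this check. No library was left out, and no pair differed by as little as sampling noise (chi-square per degree of freedom of at least 32.5).

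The genes, the lists of related genes and the markers were chosen with earlier results of these data known. From each list of related genes the most abundant gene and those with the largest rise and fall were named by rule, and further genes, such as Serpina3m, Serpina3f, Msn, Trf, Lifr, Jak2, Dst, Macf1, Dmd and Cryab, were named after their values were seen. The length classes and the position measure were also added after seeing the data. The labels do not say whether libraries of a genotype came from separate animals, so p-values measure the spread between these libraries. Library numbers fall in separate ranges for the 2 genotypes, so that library batches, which no label names, and genotype cannot be told apart. The paper states that several libraries shared a flow cell lane and does not say which. The sequences of the Gfap transcripts are not reported here.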

Additional observations from a re-analysis of the deposited data

How the results depend on the processing

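Of the 10 genes, 0 were called under the other scalings, filters and transcript choices in edgeR and with any 1 library left out (0 to 0), and DESeq2 with or without its prior called 1, Serpina3n. Over all genes, 1 was called in the setting reported above, 0 with scaling on the astrocyte markers, with at least 10 counts in every library or with transcripts added up, 0 to 11 with 1 library left out (11 without Cx43KO replicate 1), 173 by DESeq2 without prior and 130 with it. DESeq2 with its prior called 113 after edgeR's filter, the setting run first, and the change to its own filtering was made after these counts had been seen. Scaling on the astrocyte markers moved the median log2 fold change of all genes from 0.071 to 0.38.

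The log2 fold change turned sign with transcripts added up for Gfap (-0.015) and Vim (0.019). With 1 library left out it ranged from -0.41 to 0.64 for Gfap, -0.36 to 0.32 for Vim, -0.058 to 3.09 for Steap4, -1.61 to 0.57 for Osmr and -0.47 to 0.67 for Gfap-201. Without Cx43KO replicate 3 it was -0.41 for Gfap and -0.47 for Gfap-201, without Cx43KO replicate 1 it was 0.32 for Vim and 0.48 for Osmr, without Cx43KO replicate 2 it was -0.058 for Steap4 and 0.22 for Osmr, and without Cx43FL replicate 2 it was 0.57 for Osmr. Gfap relative to the astrocyte markers ranged from -0.043 (without Cx43KO replicate 3) to 0.41, and the difference in the percentage of Gfap-201 from 3.38 to 11.0. The cause was not tested. Serpina3n, Synm, Plec, S1pr3, Nes and Cd44 kept their direction in every setting run, and Steap4 could not be tested with at least 10 counts in every library.

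Replicate numbers did not pair the libraries: the correlations of deviations of same-numbered libraries were 0.01, -0.004 and -0.05. With the replicate block edgeR called 2 genes, Prm1 and Ighg2c, and none of the 10, and the log2 fold change was -0.020 for Gfap and -0.036 for Gfap-201. Counts of Steap4 and Nes differed between Cx43FL libraries of like depth.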
